A study of Mus musculus with 12 samples.

Results

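NK cells sorted from the livers of 3 obese mice were compared with NK cells from the livers of 3 lean mice. The 6 NK cell libraries, of 12 in the series, were chosen by cell type and diet from the labels alone; the other 6 libraries hold ILC1 and were not used in this comparison. All mice were C57BL/6, described in the study's methods as females of the C57BL/6J substrain bred in house. From weaning and for 12 weeks, the lean mice received standard RM1 chow, and the obese mice received a palatable obesogenic diet (code 824018, 45% AFE fat) with condensed milk. NK cells were sorted as Lin- NK1.1+ CD49a- CD49b+ intrahepatic leukocytes, with no other genetic or drug intervention in either group. Each library came from 1 mouse and was prepared by a low input kit from 2 ng of RNA.

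NK cells are cytotoxic lymphocytes of the innate immune system that balance signals from activating and inhibitory receptors, and that answer activation by releasing perforin and granzymes and by secreting cytokines and chemokines. The liver is rich in them, alongside the related but tissue-resident ILC1, which carry CD49a and kill less readily. In diet-induced obesity, hepatocytes fill with lipid and the liver can become inflamed. The comparison asks which transcripts of the circulating type of NK cell differ with the diet.

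Counts were analysed for 5545 genes, those with symbols up to Cyp26b1 in alphabetical order, so Cd, Ccl and Ccr genes were covered and those of perforin and the granzymes were left out here. In this set the lean libraries held 1845970 to 2136211 counts and the obese libraries 2306550 to 2826766. A total of 1596 genes had 10 or more raw counts in each of the 6 libraries, and these are called well-counted below. Levels are in CPM, counts scaled to the size of the library, after TMM normalization, which allows for differences in library composition, and they are compared between libraries for 1 gene at a time.

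One library stood apart. Lean replicate 27 had counts for 1948 genes, against 2836 and 2841 in the other lean libraries and 3075 to 3084 in the obese ones. In it, 364 genes that had 10 or more counts in each of the other 5 libraries were at 0, whereas each of those 5 had between 0 and 2 such genes. It held the highest of the 6 values for 44.1% of well-counted genes and the lowest for 32.5%. The median SD of log2 CPM between lean libraries was 0.41 with it and 0.15 without it, beside 0.15 between obese libraries. The cause was not tested. Results are therefore given with all 6 libraries and again without lean replicate 27, which leaves 2 lean libraries.

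Few well-counted genes differed much between the diets. With all 6 libraries, 1228 of the 1596 had a log2 fold change (obese over lean) between -0.5 and 0.5, and 92 were beyond 1 in either direction. The quasi-likelihood test of edgeR, adjusted after Benjamini and Hochberg, called 0 of 2378 genes tested (0%) higher and 0 (0%) lower, where a call needed an adjusted p under 0.05 and more than a 2-fold difference. The smallest adjusted p by this test was 0.365, for Apoe. DESeq2 with the same 6 libraries called 3 genes higher, Apoe, Apoa1 and Apoa4, and 0 lower. With no threshold on the fold, DESeq2 gave 6 higher and 4 lower at an adjusted p under 0.05. The 6 were those 3 with Car2, Cd160 and Cd226, and the 4 were Cirbp, Ccl4, Cma1 and 2010012O05Rik. At an unadjusted p under 0.05, the edgeR test had 43 of the genes tested higher and 46 lower. Among well-counted genes, 31 (1.94%) were higher and 45 (2.82%) lower at that unadjusted p, together no more than an unadjusted threshold of 0.05 lets through when nothing differs. In 127 (7.96%) every obese library lay above every lean library, and in 155 (9.71%) below.

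**Figure D1:**
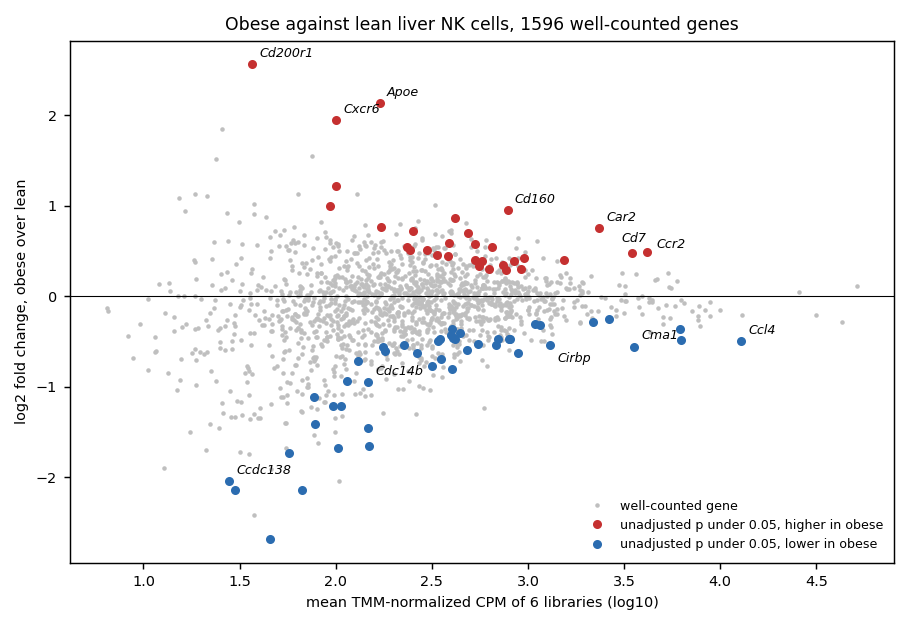
Log2 fold change of obese over lean NK cells (vertical axis) against mean level (horizontal axis, log10 of TMM-normalized CPM) for the 1596 well-counted genes, each a dot. Coloured dots are the 31 genes higher (red) and 45 lower (blue) in obese mice at an unadjusted p under 0.05, and the labelled genes on the right, such as Ccl4 and Ccr2, are strongly expressed ones with small fold changes.

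Without lean replicate 27, 11 of 2511 genes (0.438%) were called higher and 0 (0%) lower. The 11 were Apoe, Apoa1, Apoa4, Alb, Cd74, Cd200r1, Adgrg5, Cdc20, C1qtnf6, 2810417H13Rik and 4930579G24Rik. With no threshold on the fold, 23 (0.916%) were higher and 7 (0.279%) lower at an adjusted p under 0.05 by the same test. Of these 30 genes, 21 were well-counted, 14 higher and 7 lower, and for 22 lean replicate 27 also lay on the lean side of every obese library. The 22 include Adgrg5, Cd74, Crtam, Ap1b1, Cdc20 and 4930579G24Rik, of which lean replicate 27 had 0 to 7 counts and the other lean libraries far more. Many genes were near 0 in that library, so its place for these is no sign of agreement. The well-counted genes named first below are the 12 in each direction with the smallest unadjusted p among those whose groups did not overlap. Their log2 fold changes with all 6 libraries ran from 0.38 to 2.56 among those higher in obese mice and from -0.32 to -2.04 among those lower. All 24 kept their sign when lean replicate 27 was left out. Choosing genes whose groups did not overlap left little room for any other outcome. With all 6 libraries, none of the 24 had an adjusted p under 0.05 by edgeR's quasi-likelihood test. Without lean replicate 27, 9 of the 12 higher and 4 of the 12 lower had one. The remaining libraries had also served to choose the 24 genes, so these counts are not an independent check.

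**Figure D2:**
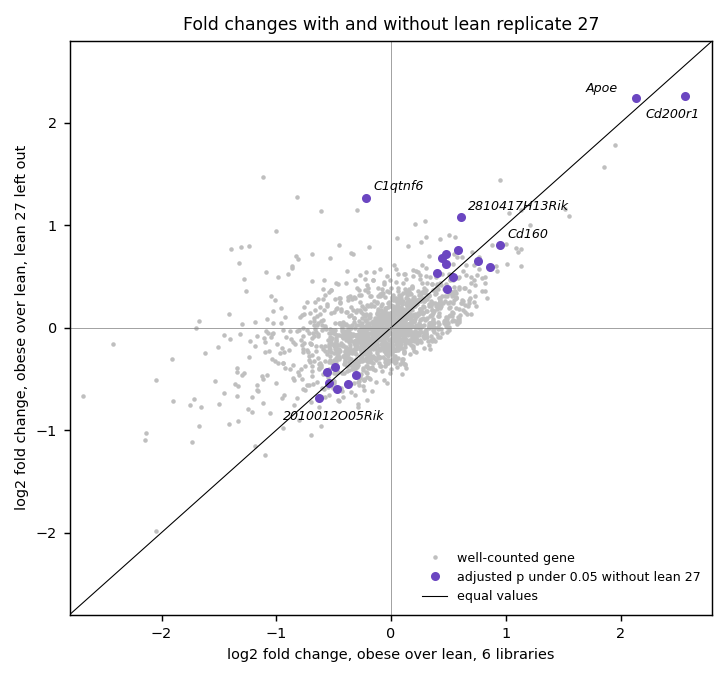
Log2 fold change of obese over lean NK cells for the 1596 well-counted genes with all 6 libraries (horizontal axis) and with lean replicate 27 left out (vertical axis), with the line of equal values. The 21 purple genes, with an adjusted p under 0.05 without that library, have the same sign on both axes except C1qtnf6.

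Among the genes higher in every obese library were 3 of surface receptors of NK cells, Cd160, Cd226 and Cd7, while Ccl3, Ccl4 and Cma1, which encode secreted products, were lower in every obese library. In bulk libraries a different number of cells of one kind within the sort and a different level per cell cannot be told apart. Cd160 encodes a receptor for HVEM and MHC class I molecules. Its level was 545, 646 and 415 CPM in lean libraries 25, 26 and 27, and 1076, 1157 and 869 CPM in obese libraries 25, 26 and 27. Every obese library was above every lean one, by 1.93-fold in the means. The log2 fold change with all libraries was 0.95 (SE 0.20). By edgeR's quasi-likelihood test the unadjusted p was then 0.00232 and the adjusted p 0.972. Without lean replicate 27 the log2 fold change was 0.81 (SE 0.13, adjusted p = 0.00741 by the same test). Cd160 lies at chr3:96798763-96829351 of GRCm38 on the minus strand, where exons of Pdzk1 on the opposite strand overlap its exons; whether the counting used strand is not given in the sources used here. Annotated exons of other genes also overlap those of Cd7, B4galnt1, Ahctf1, Cdc14b and Cdc20b, which are named below.

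Cd226 encodes the activating receptor DNAM-1, which binds CD155 and nectin-2 on target cells. It had 545, 558 and 479 CPM in the lean and 721, 828 and 753 CPM in the obese libraries, without overlap. Cd7, an early lymphoid surface molecule kept by NK cells, had 2542, 2762 and 3405 CPM in the lean and 3868, 4184 and 4089 CPM in the obese libraries. Both differed by less than 2-fold, with log2 fold changes of 0.54 (SE 0.12) for Cd226 and 0.48 (SE 0.13) for Cd7. Their adjusted p-values by the same test, once lean replicate 27 was left out, were 0.0492 for Cd226 and 0.00241 for Cd7, so Cd226 only just passed. With all libraries they were 0.972 for Cd226 and 0.977 for Cd7. Crtam, a receptor for the nectin-like molecule Necl-2, was not well-counted because lean replicate 27 had 1 count of it, and it was picked for mention after its values were seen. It had 247 and 229 CPM in lean libraries 25 and 26 and 402 to 447 CPM in the obese ones, a log2 fold change without lean replicate 27 of 0.82 (SE 0.14, adjusted p = 0.00848).

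Ccl3 and Ccl4 encode the chemokines MIP-1α and MIP-1β, which draw other leukocytes and are made quickly on NK cell activation. Ccl4 was among the most strongly expressed genes, with 13365, 14813 and 16843 CPM in the lean and 10492, 10529 and 10985 CPM in the obese libraries. Ccl3 had 6010, 8196 and 7579 CPM in the lean and 4991, 5026 and 5563 CPM in the obese libraries. For both, every obese library lay below every lean library, and the obese mean was 71.1% of the lean mean for Ccl4 and 71.5% for Ccl3. The log2 fold change of Ccl4 was -0.49 (SE 0.11) with all libraries and -0.39 without lean replicate 27. Its adjusted p by edgeR's test was 0.972 with all libraries and 0.0152 without lean replicate 27. For Ccl3 the log2 fold change was -0.48 (SE 0.13) and, without that library, -0.44. The adjusted p of Ccl3 by the same test was 0.977 and, without that library, 0.0749, so both missed the threshold.

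Cma1, which encodes a chymase, a serine protease best known from mast cell granules, had 4262, 3599 and 4873 CPM in the lean and 2989, 2723 and 2938 CPM in the obese libraries. The log2 fold change was -0.56 (SE 0.13), and -0.43 without lean replicate 27. By edgeR's test the adjusted p was 0.972 with all libraries and 0.0349 without that one. Of the 3 members of the NK cell list with the highest levels, Ccl5, AW112010 and B2m, all overlapped between the groups. Ccl5, the chemokine RANTES, had 46610, 38489 and 57137 CPM in lean and 38102, 38427 and 40440 CPM in obese libraries, with a log2 fold change of -0.28 (95% interval -0.65 to 0.08). Over the 24 well-counted NK surface and effector genes, every obese library was higher in 5 (20.8%) and lower in 3 (12.5%). The shares over all well-counted genes were 7.96% and 9.71%. At an unadjusted p under 0.05, 3 were higher and 3 lower, and the median log2 fold change was -0.04, beside -0.08 over all well-counted genes. The higher ones at that p were surface receptors (Cd160, Cd226 and Cd7) and the lower ones were secreted products (Ccl3, Ccl4 and Cma1).

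**Figure D3:**
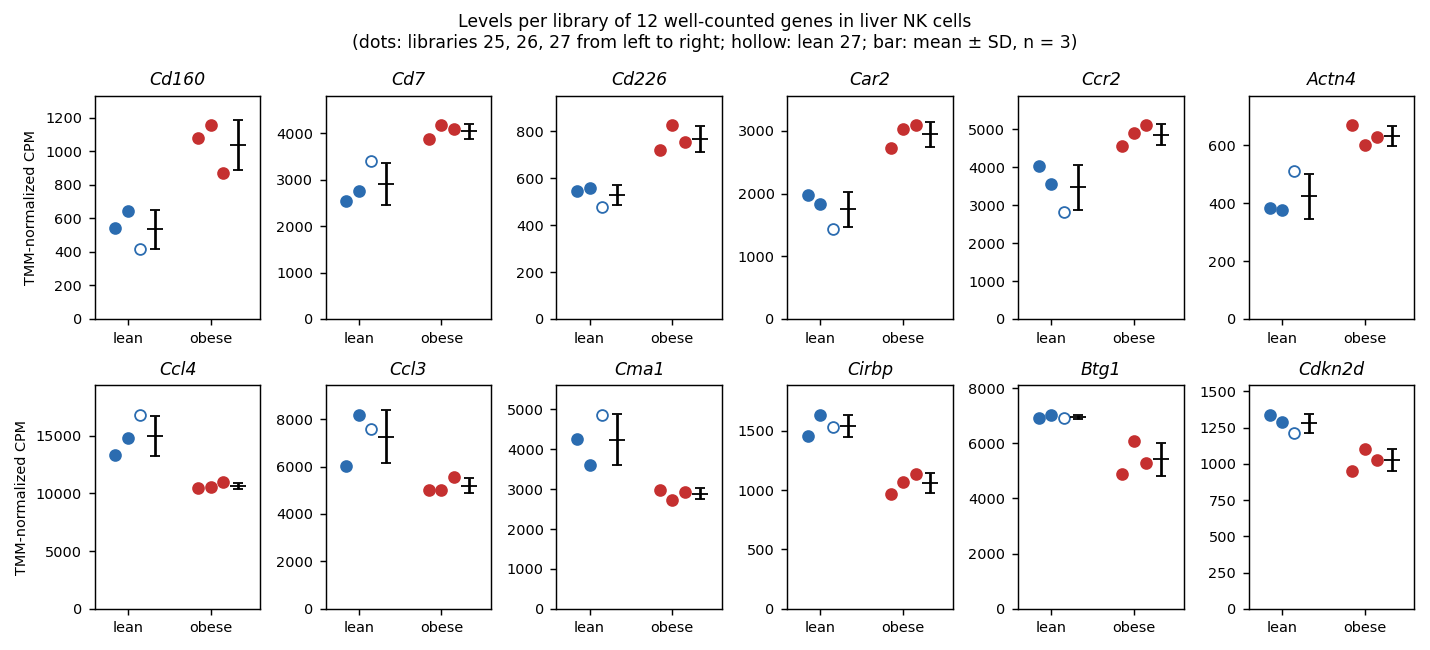
TMM-normalized CPM of 12 well-counted genes in each of the 6 NK cell libraries, with lean in blue and obese in red, lean replicate 27 hollow, and the mean and SD of 3 libraries beside the dots. In the top row every obese dot lies above every lean dot, and in the bottom row below, with gaps that are narrow for Ccl3, Cdkn2d and Ccr2.

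The stretches of 250 bases before the start of 3 of these genes are shown, for the receptor gene that was higher and 2 effector genes that were lower, with the letters TGTGGT or their reverse complement, the core that RUNX factors bind, in capitals. RUNX factors act in the development of NK cells. The sequences are from RefSeq on GRCm38.p6, each written 5′ to 3′ on the strand of its gene.
Cd160, start within the gene, chr3:96814522-96814771, minus strand: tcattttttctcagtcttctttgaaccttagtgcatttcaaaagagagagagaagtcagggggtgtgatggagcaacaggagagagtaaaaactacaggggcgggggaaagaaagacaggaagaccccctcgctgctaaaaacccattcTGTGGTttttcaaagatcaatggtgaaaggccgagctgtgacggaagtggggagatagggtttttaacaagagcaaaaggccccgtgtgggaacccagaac
Ccl3, chr11:83649379-83649628, minus strand: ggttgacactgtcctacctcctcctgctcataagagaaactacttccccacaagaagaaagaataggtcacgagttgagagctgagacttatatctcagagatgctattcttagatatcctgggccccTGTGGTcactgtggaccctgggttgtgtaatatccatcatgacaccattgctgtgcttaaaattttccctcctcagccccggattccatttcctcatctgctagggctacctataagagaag
Cma1, chr14:55944676-55944925, minus strand: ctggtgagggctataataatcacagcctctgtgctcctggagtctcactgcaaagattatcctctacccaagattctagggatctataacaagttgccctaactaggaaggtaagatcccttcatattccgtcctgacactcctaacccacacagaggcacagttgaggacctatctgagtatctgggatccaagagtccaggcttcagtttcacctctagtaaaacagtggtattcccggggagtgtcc
The letters occurred once before Cd160 and once before Ccl3, on the strand of the gene, and not in the window before Cma1. A second window of Cd160, at the start of the annotated gene (chr3:96829352-96829601), overlaps an exon of Pdzk1 and is not shown; it held the letters once, as the reverse complement. Among 32851 windows of the same length before annotated starts, 14% held them on either strand, and a match is a description of the letters only.

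Of the receptors that guide NK cells to tissue, Ccr2, Cxcr3 and Cxcr6 were higher in every obese library. Ccr2, the receptor for CCL2, had 4017, 3544 and 2828 CPM in the lean and 4567, 4888 and 5116 CPM in the obese libraries, a log2 fold change of 0.49 (SE 0.14). Without lean replicate 27 this was 0.38 (SE 0.09), and the edgeR test then gave an adjusted p of 0.0492. Cxcr3, which binds interferon-induced chemokines, had 436, 472 and 131 CPM in the lean and 567, 629 and 631 CPM in the obese libraries. Its unadjusted p was over 0.05 with all libraries, where the log2 fold change was 0.81 (SE 0.45), and the adjusted p was 0.0947 without lean replicate 27. Cx3cr1, the fractalkine receptor of mature NK cells, overlapped between the groups, at 640 to 1213 CPM in lean and 474 to 894 CPM in obese libraries. Of 8 well-counted chemokine and chemoattractant receptors, every obese library was higher in 3 (37.5%) and lower in 0 (0%). Over all well-counted genes these shares were 7.96% and 9.71%. The median log2 fold change of the 8 was 0.53 with all libraries and 0.28 without lean replicate 27.

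The third of those receptors was Cxcr6, which is typical of liver ILC1. It had 53.8, 39.9 and 30.0 CPM in the lean and 107, 301 and 70.1 CPM in the obese libraries, so that obese replicate 26 was far above the other obese libraries. Cd200r1, an inhibitory receptor that is also characteristic of ILC1, had 18.9, 7.56 and 5.41 CPM in lean and 44.9, 87.8 and 56.4 CPM in obese libraries, with obese replicate 26 again the highest. Their log2 fold changes were 1.95 (SE 0.63) for Cxcr6 and 2.56 (SE 0.74) for Cd200r1. The adjusted p by the same test without lean replicate 27 was 0.0912 for Cxcr6 and 0.0219 for Cd200r1. Cblb, a ubiquitin ligase that restrains NK cell activation, had 354, 314 and 261 CPM in lean and 482, 493 and 425 CPM in obese libraries, a log2 fold change of 0.59 (SE 0.17). Other inhibitory receptors with high levels showed no such separation. Cd244 (2B4) had a log2 fold change of -0.18 (SE 0.17) and Cd96 one of -0.02 (SE 0.13). Of the 10 well-counted inhibitory and regulatory receptors, 2 were higher and 0 lower at an unadjusted p under 0.05. The shares over all well-counted genes were 1.94% and 2.82%. Every obese library was higher in 3 of the 10 (30%) and lower in 0, beside 7.96% and 9.71% over all well-counted genes. The median log2 fold change of the list was 0.00 with all libraries and 0.24 without lean replicate 27.

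The actin cytoskeleton, which NK cells reorganize to migrate and to form the synapse with a target, held several genes with higher levels in obese mice. Actn4, an actin-bundling α-actinin, had 383, 376 and 513 CPM in the lean and 672, 603 and 628 CPM in the obese libraries. Coro7, a coronin, had 328, 393 and 170 CPM in lean and 510, 541 and 565 CPM in obese libraries. The log2 fold changes were 0.58 (SE 0.16) for Actn4 and 0.86 (SE 0.30) for Coro7, and without lean replicate 27 they were 0.75 and 0.59, with adjusted p-values by the same test of 0.00637 and 0.0483. Exons of Capn12 overlap those of Actn4 and exons of Dnaja3 those of Coro7, on the opposite strand. Actb itself, the commonest actin, overlapped between the groups with a log2 fold change of 0.11 (SE 0.16). Of 35 well-counted members, every obese library was higher in 9 (25.7%) and lower in 5 (14.3%), beside 7.96% and 9.71% over all well-counted genes. The 9 included Coro1a, Coro1c, Arpc2 and Actr3, and the 5 included Cfl1 and Cdc42, so the list did not move in 1 direction. At an unadjusted p under 0.05, 3 were higher and 0 lower with all libraries.

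Outside these groups, Car2, a carbonic anhydrase that interconverts carbon dioxide and bicarbonate, had 1972, 1837 and 1436 CPM in the lean and 2725, 3029 and 3100 CPM in the obese libraries. This was a log2 fold change of 0.76 (SE 0.14), with an unadjusted p of 0.00117 and an adjusted p of 0.972 by edgeR's test. Without lean replicate 27 it was 0.65, with an adjusted p of 0.00259 by the same test. B4galnt1, a glycosyltransferase of complex gangliosides, had 1257, 1199 and 1545 CPM in lean and 1839, 1709 and 1739 CPM in obese libraries. Ccng1, a cyclin induced by p53, and Chtop, an mRNA export factor, were the other well-counted genes of this set that were higher in every obese library, with log2 fold changes of 0.38 (SE 0.11) for Ccng1 and 0.39 (SE 0.12) for Chtop. Apoe completed it with the smallest p. Its level was 55.3, 62.6 and 70.8 CPM in the lean and 306, 310 and 215 CPM in the obese libraries, and it is described again beside the hepatocyte genes.

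The genes lower in obese mice included Cirbp, Btg1 and Cdkn2d, which act in RNA biology and in restraint of the cell cycle. Cirbp, an RNA-binding protein induced by mild cold, had 1456, 1636 and 1531 CPM in the lean and 970, 1066 and 1135 CPM in the obese libraries, without overlap. The log2 fold change was -0.54 (SE 0.10) with all 6 libraries and -0.54 (adjusted p = 0.0213) without lean replicate 27. Btg1, an antiproliferative cofactor of the CCR4-NOT deadenylase that maintains lymphocyte quiescence, had 6918, 7047 and 6933 CPM in the lean and 4900, 6082 and 5292 CPM in the obese libraries. Its obese mean was 77.9% of the lean mean, with an adjusted p of 0.0749 without lean replicate 27. Cdkn2d, the CDK4 and CDK6 inhibitor p19, had 1341, 1291 and 1212 CPM in the lean and 954, 1104 and 1024 CPM in the obese libraries, a log2 fold change of -0.32 (SE 0.10). 2010012O05Rik, whose function is not described here, had 1046, 1210 and 968 CPM in lean and 624, 749 and 712 CPM in obese libraries, with an adjusted p of 0.00773 without lean replicate 27.

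C1d, an RNA exosome cofactor, was at 697, 824 and 896 CPM in lean and 594, 556 and 513 CPM in obese libraries. Ahctf1, which anchors nuclear pores to chromatin, and Cdc14b, a nuclear phosphatase, were lower in every obese library, with log2 fold changes of -0.77 (SE 0.23) for Ahctf1 and -0.95 (SE 0.30) for Cdc14b. In both, lean replicate 27 was the highest library, and without it the values were -0.50 for Ahctf1 and -0.68 for Cdc14b. Ccdc138 and Cdc20b completed the set of 12, and Ccdc138 had the widest fold, from 43.3, 43.7 and 47.7 CPM in the lean to 8.40, 8.46 and 15.7 CPM in the obese libraries. Among 48 well-counted chromatin regulators, every obese library was lower in 10 and higher in 1, a share of 20.8% lower and 2.08% higher beside 9.71% and 7.96% over all well-counted genes. At an unadjusted p under 0.05, 5 were lower (Asxl2, Brd1, Cbx7, Chd8 and Ctcf) and 0 higher. Chd8, a chromatin remodeller, had 461, 475 and 436 CPM in lean and 298, 337 and 388 CPM in obese libraries. The median of the list was 0.00 with all libraries and -0.13 without lean replicate 27, and at an adjusted p under 0.05 by the same test there was no member in either direction. Among 43 splicing and mRNA processing genes, every obese library was lower in 6 (14%) and higher in 3 (6.98%), nearer to the shares over all well-counted genes.

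Leaving out lean replicate 27 brought back genes that were at or near 0 in that library, and 2144 genes had 10 or more counts in each of the other 5. Of these, 186 (8.68%) were higher and 122 (5.69%) lower in obese mice at an unadjusted p under 0.05. The cell cycle list gained most, from 41 well-counted members to 71 members with such counts. Of the 71, 19 (26.8%) were higher and 2 (2.82%) lower at that p, and the median log2 fold change was 0.31, beside -0.01 over the 2144 genes. The 19 include cyclins (Ccnb1, Ccnb2, Ccne1 and Ccne2), kinases (Cdk1 and Cdk2) and proteins of the spindle and its checkpoint (Cdc20, Bub1b, Cdca8, Birc5 and Aspm), while the 2 lower were the inhibitors Cdkn1a and Cdkn2d. Adjusted over the 2511 genes tested without that library, the edgeR test gave Cdc20 an adjusted p of 0.0483, and no other member was under 0.05. In a fit of the 2144 genes alone, an alternative chosen after seeing the data, 3 members passed, Bub1b (adjusted p = 0.0223), Cdc20 (0.0260) and Cdca8 (0.0431). Cdc20 activates the anaphase-promoting complex, and had 39.8 and 56.7 CPM in lean libraries 25 and 26, 0 in lean replicate 27, and 121, 114 and 92.9 CPM in the obese libraries.

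With lean replicate 27 included the cell cycle measures differed. With all 6 libraries, 1 of 41 well-counted cell cycle genes was higher and 1 lower at an unadjusted p under 0.05, and the median log2 fold change was -0.04. Every obese library was higher in 8 of the 41 (19.5%) and lower in 2 (4.88%), beside 7.96% and 9.71% over all well-counted genes. Several members that were at 0 in lean replicate 27 stood beside others that were highest there, such as Cep55 with 22.9, 26.4 and 233 CPM in the lean and 53.7, 38.8 and 48.6 CPM in the obese libraries, and Aurkb with 272 CPM in that library. The member at an unadjusted p under 0.05 with all libraries was Asf1b, a histone chaperone of replicating cells, with 207, 208 and 156 CPM in lean and 355, 336 and 251 CPM in obese libraries. Apart from Asf1b and Cdkn2d, the cell cycle genes were selected for mention after their values were seen.

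Other lists without lean replicate 27 are set beside shares of 8.68% higher and 5.69% lower over the 2144 genes. Of 35 actin cytoskeleton genes with 10 counts in the other 5 libraries, 14 (40%) were higher and 0 lower at an unadjusted p under 0.05, 3 of them (Actn4, Coro7 and Cotl1) with an adjusted p under 0.05. Of 55 chromatin regulators, 3 (5.45%) were higher and 11 (20%) lower, and the 11 included Ankrd11, Bptf, Atrx and Crebbp. Of 18 immediate early and stress response genes, 1 was higher and 5 (27.8%) lower, namely Btg1, Btg2, Ccl3, Ccl4 and Cdkn1a; Cd69, an early activation marker, had a log2 fold change of 0.07 (SE 0.19). Of 9 chemokine receptors, 4 were higher and 0 lower. Of 13 interferon response and antigen presentation genes, 5 (38.5%) were higher, namely B2m, BC147527, Cd74, Cmpk2 and Ctss, and 1 lower (Cd1d1).

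**Figure D4:**
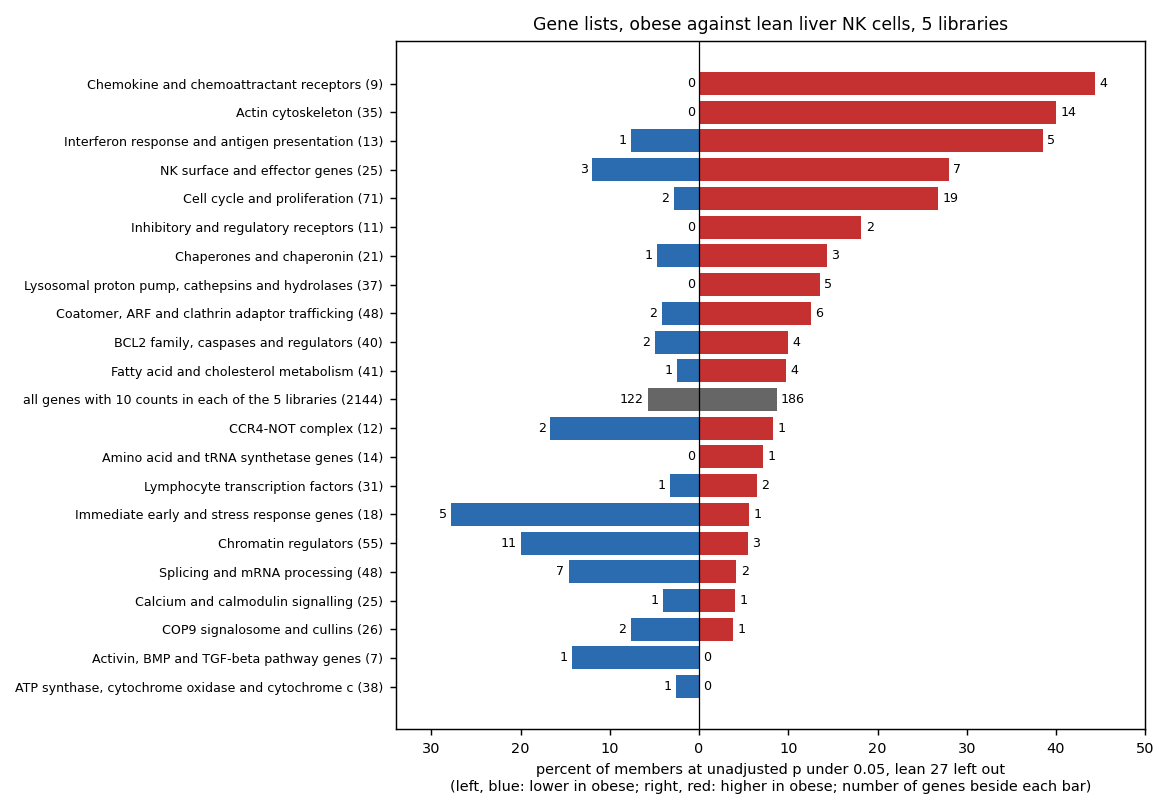
Percent of members of each gene list at an unadjusted p under 0.05, lower (blue, left) and higher (red, right) in obese NK cells, in the fit without lean replicate 27, with the number of members with 10 or more counts in the 5 libraries in brackets and the number of genes beside each bar. The grey bar gives all 2144 genes, 122 lower and 186 higher; cell cycle, actin, chemokine receptor and interferon response genes extend to the right, and chromatin regulators and immediate early genes to the left.

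Few well-counted metabolic genes reached an unadjusted p under 0.05 with all 6 libraries. Of the 38 well-counted genes of ATP synthase, cytochrome oxidase and cytochrome c, the machinery of mitochondrial ATP production, 0 were higher and 0 lower at an unadjusted p under 0.05, and log2 fold changes ran from -0.99 to 0.47 with a median of -0.16. Without lean replicate 27 the median was -0.04, with 0 higher and 1 (Cox10) lower. Atp5b had 3013, 3292 and 2938 CPM in lean and 3588, 3214 and 3223 CPM in obese libraries. Of 31 well-counted fatty acid and cholesterol genes, 1 was lower at that p, Acss2, which makes acetyl-CoA from acetate, with a log2 fold change of -0.53 (SE 0.20). The log2 fold changes of the 31 ran from -0.75 to 1.02. Without lean replicate 27, 4 of 41 were higher (Acads, Acly, Acss1 and Agpat1) and 1 lower, close to the shares over all genes. Of 34 lysosomal genes, 2 were higher, the proton pump subunit Atp6v1b2 (0.35, SE 0.13) and the cathepsin gene Ctss (0.51, SE 0.18, log2 fold changes), and 0 lower. Cd36, of the fatty acid list, was not well-counted. A likelihood-ratio test of all 6 libraries, an alternative, called it higher (log2 fold change 5.97, adjusted p = 0.00648).

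The remaining lists are given with all 6 libraries at an unadjusted p under 0.05, where 1.94% of well-counted genes were higher and 2.82% lower. Of 19 chaperone genes, 1 was higher (Cdc37, a cochaperone of HSP90) and 0 lower. Of 40 coatomer, ARF and clathrin adaptor genes, 2 were higher (the AP-2 subunits Ap2m1 and Ap2s1) and 0 lower. Of 26 COP9 signalosome and cullin genes, 1 was lower (Cul3). Of 11 CCR4-NOT genes, 1 was lower (Btg1), and of 27 lymphocyte transcription factors, 1 was lower (Aff1). Of 10 interferon response and antigen presentation genes, 1 was higher (Ctss) and 0 lower. The 33 genes of the BCL2 family, caspases and their regulators, 21 genes of calcium and calmodulin signalling, 12 amino acid and tRNA synthetase genes and 6 genes of the activin, BMP and TGF-beta pathway had 0 in either direction. The log2 fold changes of these 6 ran from -0.18 to 0.09.

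Transcripts of other cell types were also counted in these libraries. NK cell markers summed to 83660 to 120410 CPM across the libraries and overlapped between the groups, and Cd160, Cd244, Cd7, Cd96 and Ctsw each had over 50 counts in every library. Hepatocyte markers summed to 43.3, 79.3 and 232 CPM in the lean and 515, 416 and 136 CPM in the obese libraries, which overlapped. In 6 of 17 markers every obese library was higher, and in 0 lower. None of the 17 was well-counted, so the share of 7.96% higher over well-counted genes is not a like measure. Many genes were at 0 in lean replicate 27, and obese libraries held more counts, so separation at low counts carries little weight. Apoa1, a plasma apolipoprotein made by hepatocytes, had 0, 2 and 1 raw counts in lean and 156, 113 and 33 in obese libraries, and Alb, the albumin gene, had 13, 7 and 230 counts in lean and 480, 474 and 99 in obese libraries. Apoe, which hepatocytes and Kupffer cells also make, was 4.40-fold higher in the mean of the obese libraries. The part of hepatocyte RNA in the level of Apoe was not tested.

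Kupffer cell and macrophage markers summed to 88.5 to 596 CPM in lean and 129 to 212 CPM in obese libraries. Lean replicate 27 was the highest, through Cd163 and Cd68. In 5 of 14 markers every obese library was higher, and in 0 lower. These 5 were not well-counted, such as C1qa with 1, 1 and 0 raw counts in lean and 5, 2 and 11 in obese libraries. T cell markers summed to 543 to 1066 CPM in lean and 827 to 1177 CPM in obese libraries, which overlapped. Of the total, 67.1% was Cd28, with a log2 fold change of 0.12 (SE 0.28). In 3 of 10 T cell markers, Cd3d, Cd3e and Cd8b1, every obese library was higher, and in 0 lower. This count and that of B cell markers below stand beside 7.96% higher and 9.71% lower over all well-counted genes. Cd8b1 was not well-counted, with 0 raw counts in each lean library and 1, 14 and 2 in the obese ones. Cd3e, a chain of the T cell receptor complex, had 18, 34 and 12 raw counts in lean and 94, 168 and 55 in obese libraries. Cd3g overlapped between the groups, and Bcl11b and Cd4 had lower means in obese than in lean libraries. B cell markers summed to 1443 to 1939 CPM in lean and 1772 to 2168 CPM in obese libraries, and most of this was Cd72. In 2 of the 12 B cell markers, Cd74 and Cd79b, every obese library was higher, and in 1, Bank1, every obese library was lower (41.3, 61.0 and 225 CPM in lean, 21.4, 25.4 and 27.4 CPM in obese libraries). Cd74, the invariant chain of MHC class II, had 297, 175 and 7 counts in lean and 986, 1716 and 667 in obese libraries, a log2 fold change of 1.83 (adjusted p = 0.00637) without lean replicate 27. The ILC1 markers, Cxcr6 and Cd200r1, summed to 72.7, 47.5 and 35.4 CPM in lean and 152, 389 and 127 CPM in obese libraries, without overlap (p = 0.1, two-sided, by exact permutation, which cannot go lower with 3 against 3). Cxcr6, Cd200r1, Cd74 and Cd3e were each highest in obese replicate 26. The part of such cells in the differences of receptor and cell cycle genes was not tested.

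**Figure D5:**
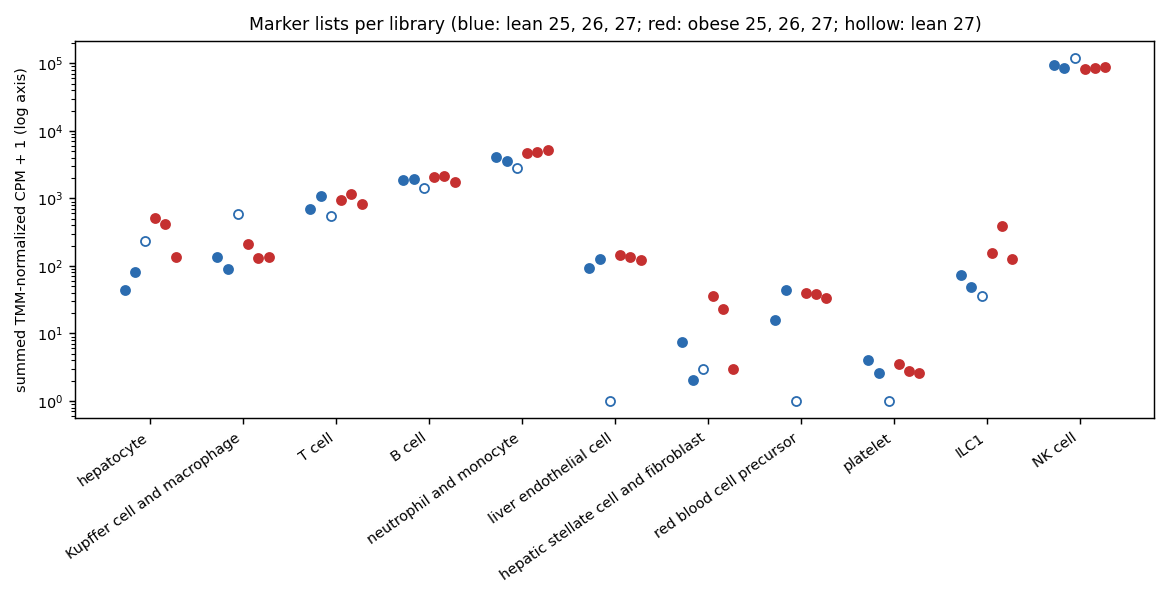
Summed TMM-normalized CPM plus 1 (log axis) of 11 marker lists in each of the 6 NK cell libraries, lean in blue and obese in red, with lean replicate 27 hollow. The NK cell list is the highest, at 83660 to 120410 CPM; the neutrophil and monocyte list, most of which is Ccr2, and the ILC1 list are the 2 in which every obese library lies above every lean one.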

How the data were processed

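Counts of 6 libraries of NK cells sorted from mouse liver were analysed, 3 lean and 3 obese, grouped by their labels and matched to the table by column name, with 0 value columns left unmapped. The authors deposited 1 table with raw counts of reads per gene and library, and beside them a score, the count after scaling by a per-library factor and rounding. The submitters' processing notes name bcl2fastq 2.19, Trimmomatic 0.36.5, STAR 2.5.2b, featureCounts 1.6.0.2 and mm10; the annotation and strand setting are not given in the sources used here. The thresholds, an adjusted p under 0.05 and a difference over 2-fold, are those the study set in SARTools. The score was used only to recover the factors. Columns of the authors' comparisons were not used, and 1 incomplete row was left out.

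The test was edgeR 4.0.16 in R 4.3.3 (TMM, filterByExpr, glmQLFit, glmQLFTest) and Benjamini-Hochberg adjustment over all genes tested, with no covariate. Standard errors come from the log2 fold change and the F statistic. A low count limits the precision of low genes. No pair of libraries held identical counts, and pairs within a group differed by more than sampling noise. The fit was tested on simulated data. DESeq2 1.42.0, a likelihood-ratio test, other scalings, no filter, well-counted genes alone, all 12 libraries, a replicate block and each library left out were alternatives. Two-sided exact permutation was used for marker sums.

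Named genes are up to 12 well-counted genes in each direction with the smallest p and no overlap between groups, up to 3 well-counted members of each of 21 lists with the highest level and any with an unadjusted p under 0.05, and members of 11 marker lists; further genes were chosen after their values were seen. Members and lists were chosen with earlier results of these data known. Positions are from GENCODE on GRCm38, and sequences from RefSeq.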

Additional observations from a re-analysis of the deposited data

How the results depend on the processing

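With all 6 libraries 0 genes were called in either direction. DESeq2 called 3 higher and gave 70 higher and 75 lower at an unadjusted p under 0.05 (54 and 73 of them well-counted). The likelihood-ratio test called 9 higher and gave 18 well-counted genes higher at that p. Scaling by total counts alone gave 50 well-counted genes higher, and over all genes tested 62 higher and 31 lower in place of 43 and 46. No filter gave 96 genes higher, a fit of well-counted genes alone 61 higher, and a fit of all 12 libraries 25 higher and 6 lower (6 and 6 well-counted). Deviations from the group mean of lean and obese libraries with the same number had correlations of -0.04, 0.08 and 0.01. Lean replicate 27 shaped the lean deviations, so these values cannot show whether same-numbered libraries share an effect. With the replicate block 27 were higher and 20 lower, 20 of the latter well-counted, and 0 were called. Without lean replicate 27 and with 10 counts in each of the other 5 libraries, an alternative chosen after seeing the data, 12 were called higher and 2 lower, with 191 and 128 at an unadjusted p under 0.05 (145 and 103 well-counted).

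Leaving out each library in turn, genes called higher ran from 0 to 11 and called lower from 0 to 0. Genes at an unadjusted p under 0.05 ran from 30 to 234 higher and 13 to 132 lower, and well-counted ones from 16 to 141 and 12 to 103. Well-counted genes with every obese library higher ran from 175 to 265 and lower from 198 to 277, marker lists with every obese library higher from 2 to 6, and lists with a median above that of all well-counted genes from 15 to 18. The highest counts of called genes and of genes at that p came without lean replicate 27. Of 97 named genes, the 44 with an unadjusted p under 0.05 had 0 reversals under the alternatives, and the others had 88 changes of sign. For genes whose groups did not overlap, leaving out a library left little room for a reversal. Of all 1649 values of named genes under alternatives, 8 were called, and 33, all of genes with an unadjusted p of 0.05 or more, moved by 1 standard error or more. The cause of the low number of genes in lean replicate 27 was not tested, and 2 lean libraries without it leave few degrees of freedom. Outlier tests were not made in groups of 3.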
